A study of Mus musculus with 4 samples.

Results

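Cpa3, Mdga1, Osbpl1a, Atp8b4 and Tes are 5 genes, of 31053 counted, that were chosen by their levels in summed cells, since their transcripts were abundant in the preleukemic Tal1/Lmo2 thymus and scarce in both leukemias that arose in the same transgenic line. Because the comparison between libraries chose them, their levels per library are a description and carry no test. Transcripts were counted as unique molecular identifiers (UMIs) in single thymocytes of FVB/N mice, in 4 libraries of 1 animal each. WT was a wild type thymus at 6 weeks, the preleukemic library was a Tal1/Lmo2 thymus at 6 weeks, and the leukemic libraries T-ALL#1 and T-ALL#2 were Tal1/Lmo2 thymi at 3 months. Every transgenic mouse carried both transgenes, each under the proximal Lck promoter, which is active in thymocytes, and no library of either transgene alone is used here. Leukemic mice were older than the other animals, which leaves age and leukemia inseparable, and with 1 WT and 1 preleukemic animal no spread between mice is known.

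After filtering, 17390 cells remained in the 4 libraries, between 1975 and 5770 per library, with 20492579 to 70561237 UMIs per library. Median depth was 3686 UMIs per WT cell and 4859 per preleukemic cell, and it was 8725.5 for T-ALL#1 and 17581 for T-ALL#2. Deeper cells show more genes, so shares of cells and links between genes were read after thinning each cell to 2000 UMIs unless stated, which left out shallower cells and kept 3124, 5180, 5676 and 1975 cells in that order. At most 9 cell barcodes were shared by any pair of libraries. Tal1, whose transgene the mice carry, had 0 UMIs in WT and levels of 417 UMIs per 1000000 (CPM) in preleukemic, 68.4 CPM in T-ALL#1 and 234 CPM in T-ALL#2 cells. WT and preleukemic libraries are labelled male but held Xist at 1437 and 1893 CPM with 1 and 5 UMIs of 4 Y-linked genes. These libraries thus went against their sex labels and are called by their genotype labels alone. T-ALL#1 held Xist at 1932 CPM with 1 Y-linked UMI, and T-ALL#2 at 0.0828 CPM with 4413. By these genes T-ALL#2 differed in sex from every library it is compared with, which cannot be separated from the other differences. Every comparison with or within the preleukemic library rests on that single library.

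TAL1 is a basic helix-loop-helix factor that pairs with E proteins on E-box sites, and LMO2 bridges this pair to LDB1 and GATA factors. Both are normally silenced as progenitors commit to the T lineage, and their forced expression in thymocytes gives T-cell acute lymphoblastic leukemia (T-ALL) after a long preleukemic phase. Thymocytes pass from double-negative stages, which lack CD4 and CD8 and of which DN3 cells carry CD25 (Il2ra), through double-positive to single-positive stages, while a separate branch carries the gamma-delta receptor, whose delta constant region is Trdc. The 5 genes have no common function. Cpa3 encodes a carboxypeptidase of mast cell granules that blood progenitors also transcribe. Mdga1 encodes a surface protein with immunoglobulin and MAM domains that binds neuroligins, Osbpl1a a sterol-binding protein of late endosomes, Atp8b4 a P4-ATPase of the phospholipid flippase family, and Tes the LIM domain protein testin of focal adhesions.

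Cpa3 (ENSMUSG00000001865, chromosome 3, 20215620 to 20242181 on GRCm38, minus strand), the granule protease, was by far the most abundant of the 5 genes in the preleukemic library, with 54218 UMIs in 3752 of 5530 cells (67.8%, not thinned). The other libraries held 39 UMIs in WT, 267 in T-ALL#1 and 66 in T-ALL#2. Scaled to the UMIs of the library, the level was 1386 CPM in the preleukemic library against 1.90, 3.78 and 1.82 CPM. Preleukemic cells thus held Cpa3 at 728-fold the WT level (95% interval 532 to 1024), 366-fold that of T-ALL#1 (325 to 414) and 761-fold that of T-ALL#2 (598 to 984), where intervals cover counting error only and PCR copies are already merged by the UMIs.

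Mdga1 (ENSMUSG00000043557, chromosome 17, 29827949 to 29970087, minus strand), the neuroligin-binding surface protein, had 5690 UMIs in 2778 preleukemic cells, a level of 145 CPM. It was close to absent elsewhere, with 6 UMIs in WT, 30 in T-ALL#1 and 5 in T-ALL#2, or 0.293, 0.425 and 0.138 CPM. Osbpl1a (ENSMUSG00000044252, chromosome 18, 12755314 to 12941841, minus strand), the endosomal sterol carrier, had 4497 UMIs in 2392 preleukemic cells (115 CPM). Its 35 WT UMIs lay in 31 cells (1.71 CPM), and the leukemias held 7 and 9 UMIs (0.0992 and 0.248 CPM), so WT was the highest of the other libraries for this gene. Atp8b4 (ENSMUSG00000060131, chromosome 2, 126320973 to 126500674, minus strand), the flippase-family ATPase, had 6029 UMIs in 2666 preleukemic cells (154 CPM) and 178, 133 and 60 UMIs in WT, T-ALL#1 and T-ALL#2 (8.69, 1.88 and 1.66 CPM). It thus kept the highest WT level of these 4 genes.

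Tes (ENSMUSG00000029552, chromosome 6, 17065149 to 17105828, plus strand), the focal adhesion protein, did not follow the other 4 genes. Its 5327 preleukemic UMIs gave 136 CPM and its 2310 WT UMIs gave 113 CPM, with the transcript in 51.1% of preleukemic and 31.1% of WT cells before thinning. The preleukemic level was 1.21-fold that of WT (1.15 to 1.27), but 52.8-fold that of T-ALL#1 (182 UMIs, 2.58 CPM) and 617-fold that of T-ALL#2 (8 UMIs, 0.221 CPM). Over all cells, Tes was therefore scarce in both leukemias and was not restricted to the preleukemic thymus. These levels compare whole thymi and not cells of 1 stage. By the ratio of the preleukemic level to the highest of the other libraries, the order was Cpa3 (366), Mdga1 (342), Osbpl1a (67.3), Atp8b4 (17.7) and Tes (1.21). The interval of Cpa3 against T-ALL#1 overlapped that of Mdga1 (239 to 507), so these neighbours were not separated.

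**Figure D1:**
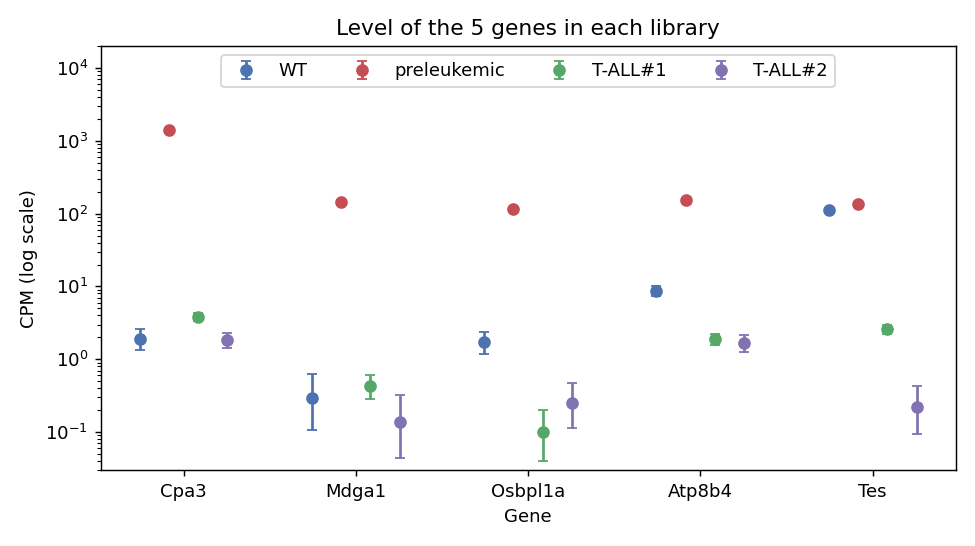
Level of each gene in CPM (log axis) in the 4 libraries, 1 animal each, with exact Poisson 95% intervals that cover counting error only. Cpa3 stands at 1386 CPM in the preleukemic library and below 4 CPM in the other libraries, while Tes has like levels in WT (113 CPM) and preleukemic (136 CPM) cells.

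4 of the 5 genes had a preleukemic level at least 2-fold over that of each of the other 3 libraries with counting intervals off 1. The same holds for 3.26% of 19380 genes with a UMI and for 3.37% of 11899 genes with at least 100 UMIs, which is given for scale, since this contrast chose the genes. Against both leukemias 5 of 5 were higher, as were 14.7% of those 11899 genes. The median ratio over all these genes was 0.984 for preleukemic over WT, 1.14 over T-ALL#1 and 1.43 over T-ALL#2. Among 3222 genes of at least 50 CPM in the preleukemic library, ranked by the smallest log2(CPM + 1) difference to the other 3 libraries, Cpa3 ranked 1, Mdga1 2, Osbpl1a 5, Atp8b4 8 and Tes 313.

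The 10 other genes with the pattern most like theirs over the 4 libraries were Arhgap6, Gpr34, P2ry1, Hhex, Proser2, Angpt1, Slc22a3, Arhgap19, Mcub and Tcrg-C1. Arhgap6, a GTPase activating protein, had 3486 preleukemic UMIs against 3, 29 and 1 in WT, T-ALL#1 and T-ALL#2. Gpr34, a lysophosphatidylserine receptor, had 3394 against 14, 18 and 1. Hhex, a homeobox factor of blood progenitors, had 2320 against 29, 18 and 20, and Angpt1, the ligand of the TIE2 receptor, 4744 against 77, 633 and 242. This likeness is over 4 libraries alone and is a description.

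The promoters of these genes are shown as a description, and whether TAL1 acts on them was not tested. Each sequence runs 5′ to 3′ up to the base before the RefSeq transcription start on GRCm38.p6, and capitals mark matches on either strand to the E-box CANNTG, to the GATA motif AGATAA or TGATAA, and to the RUNX motif TGTGGT. Cpa3 lies at chr3:20242182-20242431 on the minus strand, Atp8b4 at chr2:126491574-126491803 on the minus strand without 20 bases that are annotated as UTR, and Tes at chr6:17064899-17065148 on the plus strand. The Atp8b4 window lies inside the gene span given above, which on this strand begins at 126500674. Which start these cells use was not tested. Mdga1 and Osbpl1a are named only.
Cpa3: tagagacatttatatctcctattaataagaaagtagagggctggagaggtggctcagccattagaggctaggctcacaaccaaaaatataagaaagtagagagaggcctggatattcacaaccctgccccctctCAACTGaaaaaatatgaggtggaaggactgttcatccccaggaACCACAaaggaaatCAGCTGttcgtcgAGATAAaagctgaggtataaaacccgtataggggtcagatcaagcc
Atp8b4: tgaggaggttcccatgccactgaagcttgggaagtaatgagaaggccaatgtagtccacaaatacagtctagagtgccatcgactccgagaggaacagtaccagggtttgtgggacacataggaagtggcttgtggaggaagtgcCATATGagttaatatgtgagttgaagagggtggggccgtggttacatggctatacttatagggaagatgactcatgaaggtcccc
Tes: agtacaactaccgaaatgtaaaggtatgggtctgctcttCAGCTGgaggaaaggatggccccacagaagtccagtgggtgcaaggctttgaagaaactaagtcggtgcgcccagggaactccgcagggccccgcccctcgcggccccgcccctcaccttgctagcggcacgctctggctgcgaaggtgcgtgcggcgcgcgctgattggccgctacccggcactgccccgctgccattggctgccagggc

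The Cpa3 sequence held 2 E-boxes, CAACTG starting at position -116 and CAGCTG at -59, and 1 GATA motif, AGATAA at -46, counted from the start. CAGCTG and AGATAA stood on the same strand with 7 bases between them, and ACCACA, the complement of the RUNX motif, began at -73. Of 27025 mouse promoter windows of 250 bases, 66.0% held the E-box, 17.0% the GATA motif and 14.2% the RUNX motif, so each motif alone is common. An E-box followed within 12 bases by the GATA motif on the same strand was present in 362 of them (1.34%), a combination that was chosen after the Cpa3 sequence had been read. Atp8b4 and Tes each held 1 E-box, CATATG at -105 and CAGCTG at -211, and no GATA or RUNX motif in this window. The Tes window was richer in G and C (64.8%, with 19 CG dinucleotides) than those of Cpa3 (44.4%, 3) and Atp8b4 (49.1%, 3). A match is a string of letters and no measured binding.

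Within the preleukemic library the 5 genes were found in the same cells more often than their single frequencies give. At 2000 UMIs per cell, Cpa3 was detected in 3026 of 5180 cells, Mdga1 in 1487, Osbpl1a in 1365, Atp8b4 in 1504 and Tes in 1465. Cpa3 and Mdga1 were found together in 1275 cells where independence gives 869, a ratio of 1.47. All 10 pairs had a ratio above 1, from 1.22 for Cpa3 with Tes to 1.65 for Osbpl1a with Atp8b4 (652 against 396 cells), with a median of 1.42. The 4 pairs with Tes were the lowest, at 1.22 to 1.33. For scale, 1181 genes detected in 20 to 60% of the same cells had a median ratio of 1.03 with Cpa3. The 5th and 95th percentiles were 0.89 and 1.18. This scale covers pairs with Cpa3 only, and none was made for the pairs without it.

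Detection was asymmetric, as Cpa3 was much more abundant than the rest. Of the cells with Mdga1, 85.7% held Cpa3, whereas 42.1% of the cells with Cpa3 held Mdga1. None of the 5 genes was detected in 1314 cells (25.4%), where independence gives 576, and all 5 were detected in 120 cells (2.32%), where independence gives 18.8. The other 4 genes also followed the amount of Cpa3. From cells with 0 Cpa3 UMIs over those with 1 to 2 and 3 to 5 to those with 6 or more, Mdga1 went from 59.7 over 158 and 285 to 387 CPM, and Atp8b4 from 66.2 over 170 and 294 to 446 CPM. Osbpl1a went from 85.9 to 331 CPM. Tes changed least between these end groups, from 122 to 248 CPM.

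**Figure D2:**
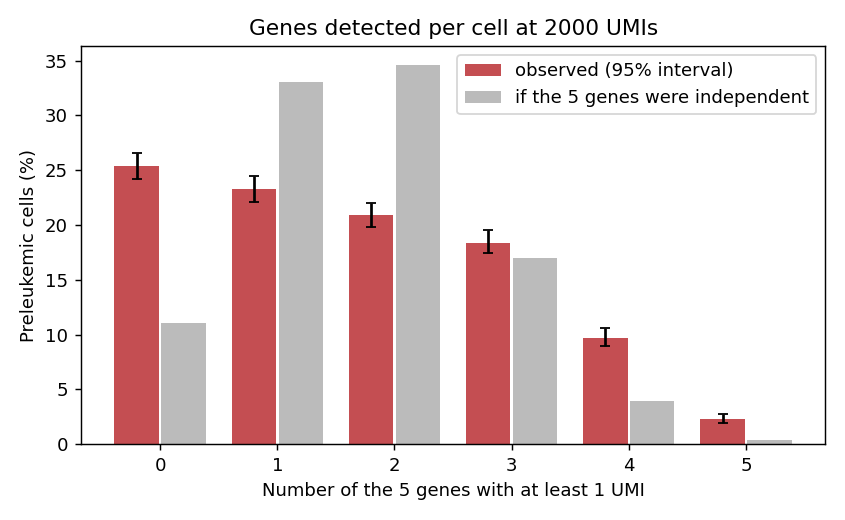
Share of 5180 preleukemic cells, thinned to 2000 UMIs, by how many of the 5 genes had a UMI (red, with exact binomial 95% intervals) beside the share that independent genes with the same single frequencies give (grey). Observed shares exceed the independent ones at 0, 3, 4 and 5 genes, and 25.4% of cells held none.

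How far free RNA in the droplets sets these shares was read in cells that should lack thymocyte transcripts. In the preleukemic library 16 cells held at least 2 of the B-cell genes Cd79a, Cd79b and Ms4a1, with a median of 4776.5 UMIs against 4859 in all cells, not thinned. Of them 5 held Cpa3 (31.2%, exact 95% interval 11 to 58.7), at 312 CPM against 1386 CPM in all cells. Mdga1 was in 0 of 16 cells (upper bound 20.6%), Osbpl1a and Atp8b4 in 2 each (12.5%), and Tes in 7 (43.8%, 19.8 to 70.1). Tal1 was in 4 and Cd3e, a T-cell receptor chain, in 3 of these cells. The shares of Cpa3, Mdga1, Osbpl1a and Atp8b4 in all cells lay above those in the B-like cells. The share of Tes (51.1%) lay within the B-like interval. In T-ALL#1, however, 3 of 12 B-like cells held Tes, at 49.1 CPM against 2.58 CPM in all cells. Whether B cells transcribe Tes was not tested, so the B-like cells do not measure free RNA for Tes. The B-like cells are few, and doublets of a B cell and a thymocyte were not separated from free RNA. Low counts of a gene in a single cell are therefore not read as expression.

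Detection of Tal1, the oncogene itself, went with little difference in the 5 genes. Cpa3 was at 1992 CPM in 2885 preleukemic cells with a Tal1 UMI and at 2040 CPM in 2295 cells without, a ratio of 0.976 (0.95 to 1.00). The ratios of Mdga1, Osbpl1a, Atp8b4 and Tes were 1.15, 1.24, 1.30 and 1.11. A difference was called where a ratio was at least 1.5 in either direction with a counting interval off 1, and by this rule 0 of 5 genes differed, beside 3.92% of 8148 genes with at least 100 UMIs. Without thinning the ratios of the 5 genes ran from 0.598 to 0.720 and 2 were called lower. The ratios of Mdga1, Osbpl1a and Atp8b4 thus stood above 1 after thinning and below 1 without it, while those of Cpa3 and Tes lay on either side of 1 among the thinned settings (0.898 to 1.07 and 0.979 to 1.15 at 1000 to 4000 UMIs). Across cells with 0, 1, 2 and at least 3 Tal1 UMIs, Cpa3 was at 2040, 2085, 2049 and 1658 CPM, lowest in the cells with most Tal1. Atp8b4 was at 198, 233, 285 and 281 CPM in the same order. Cells without a Tal1 UMI at this depth need not lack Tal1. Lmo2 was detected in 53 thinned cells, too few to be informative, and none of the 5 genes was called there, beside 2.72% of 8149 genes.

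Cd8a, the coreceptor chain of later thymocytes, marked preleukemic cells with low levels. Cpa3 was at 383 CPM in 950 cells with Cd8a and at 2379 CPM in 4230 cells without, a ratio of 0.161, and it was detected in 18.3% against 67.4% of these cells. Mdga1 (55.8 against 241 CPM, ratio 0.232), Atp8b4 (77.9 against 265 CPM, 0.294) and Osbpl1a (84.7 against 219 CPM, 0.387) followed the same order. Tes differed least, at 125 against 194 CPM (0.643), and fell short of the 1.5-fold limit at 4000 UMIs per cell (0.692). All 5 genes were called lower at 2000 UMIs, beside 7.19% of the 8148 genes. Cells with Cd4, only 111, were lower still, with ratios of 0.0724 for Cpa3, 0.171 for Mdga1, 0.0682 for Osbpl1a, 0.172 for Atp8b4 and 0.492 for Tes, and all 5 were called, beside 4.19% called lower over all genes. The 16 B-like cells held Cpa3 at 312 CPM, not thinned, beside 383 CPM with Cd8a and 149 CPM with Cd4. How much of these low levels is free RNA was not tested.

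Il2ra (CD25), the surface marker of the DN2 and DN3 stages, also went with lower levels, but less evenly. In 237 cells with Il2ra, Cpa3 was at 1101 CPM against 2057 CPM in 4943 cells without (0.535), and Mdga1 (0.468) and Tes (0.583) were lower as well. Osbpl1a (0.785) and Atp8b4 (0.910) were within the limit. That makes 3 of 5 called lower, beside 5.51% of all genes, and the count was 5 at 1000 UMIs per cell and without thinning.

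Trdc, the delta chain constant region, went the other way. In 3507 cells with Trdc, Cpa3 was at 2359 CPM against 1286 CPM in 1673 cells without (1.83). Atp8b4 (1.79), Mdga1 (1.61) and Osbpl1a (1.52) were higher past the limit, and Tes (1.26) was not. By this rule 4 of 5 were called higher, beside 2.77% of all genes. The count fell to 1 at 1000 UMIs per cell and without thinning, where Cpa3 alone was called. Cpa3 was higher in cells with more Trdc. It went from 1286 CPM at 0 UMIs to 1919, 2423 and 3299 CPM at 1 to 2, 3 to 5 and at least 6 UMIs. In its single-cell data the study labelled a cluster of preleukemic DN3 cells as gamma-delta T cells by reference annotation. This cluster had high Ccr9, Cd52 and Rora. By surface staining the study saw no rise of gamma-delta thymocytes in the preleukemic thymus. It proposes germline transcription of these loci in DN3 progenitors. Whether cells with Trdc are gamma-delta cells was not tested here, so Trdc RNA alone is not read as their mark.

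**Figure D3:**
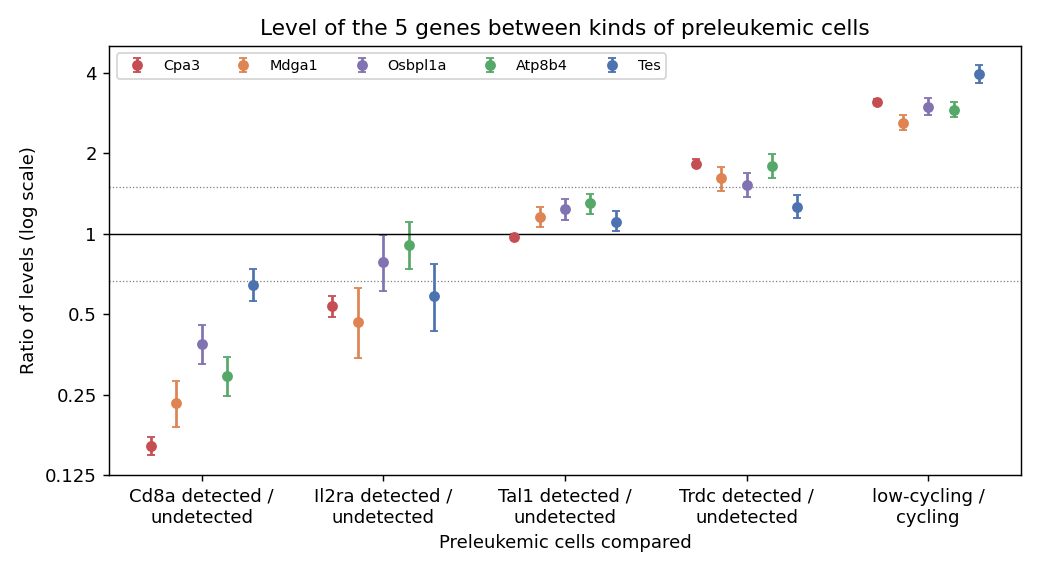
Ratio of the level of each gene (log axis) between preleukemic cells with and without a UMI of Cd8a, Il2ra, Tal1 or Trdc at 2000 UMIs per cell, and between low-cycling and cycling cells, with exact 95% counting intervals and dotted lines at 1.5-fold either way. Ratios for Cd8a are all below 1 and those for Tal1 lie between 0.976 and 1.30.

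Taking Cd8a, Il2ra and Trdc together placed the highest levels in cells with Trdc alone. These 2882 cells, 55.6% of the thinned preleukemic cells, held Cpa3 at 2714 CPM in 72.6% of cells, with Mdga1 at 269, Osbpl1a at 244, Atp8b4 at 298 and Tes at 209 CPM. At least 3 of the 5 genes were detected in 40.6% of them. In 1128 cells with none of the 3 markers Cpa3 was at 1764 CPM, and 26.3% held at least 3 genes. Lower levels were found in 130 cells with Il2ra and Trdc (1442 CPM) and in 90 cells with Il2ra alone (706 CPM). Cells with Cd8a were lowest whether Trdc was present (484 cells, 527 CPM) or absent (449 cells, 220 CPM). Trdc was thus linked to more Cpa3 among cells with Cd8a, among cells with Il2ra and among cells with neither. Only 6 and 11 cells held Cd8a with Il2ra, and their values are not given. The 220 CPM with Cd8a alone lay below the 312 CPM of the B-like cells, not thinned, and is not read as expression.

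**Figure D4:**
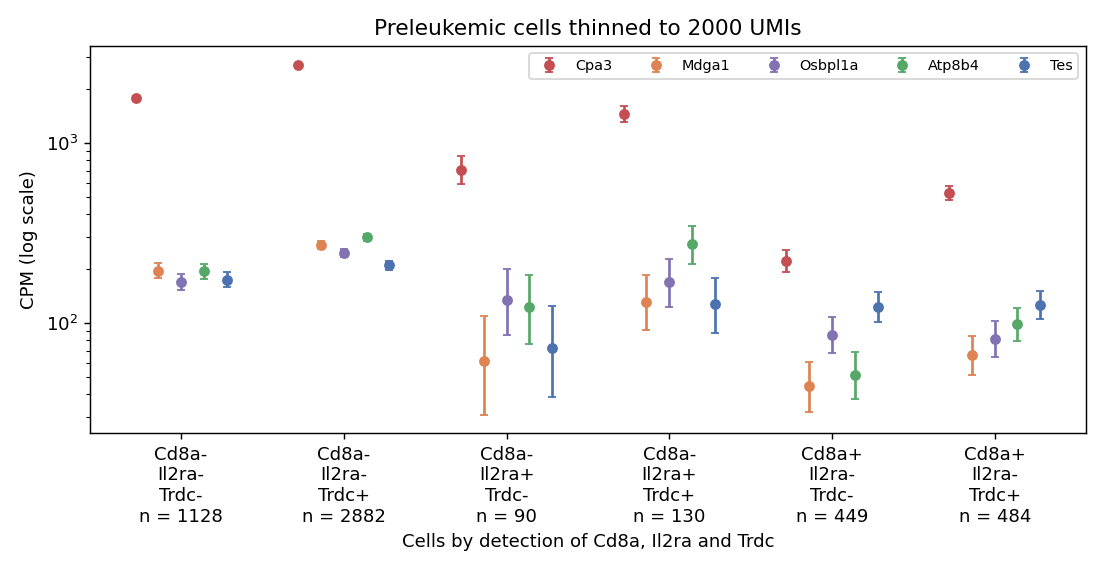
Level of each gene (CPM, log axis, exact Poisson 95% intervals) in preleukemic cells thinned to 2000 UMIs and sorted by detection of Cd8a, Il2ra and Trdc, for classes of at least 90 cells. Cpa3 ranges from 2714 CPM in cells with Trdc alone to 220 CPM in cells with Cd8a alone.

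Sorting cells by how many of the 5 genes they held gave the same picture from the other side. From 0 to 5 genes detected, the share of cells with Cd8a was 40.6, 19.6, 10.7, 4.41, 3.17 and 5%. The share with Trdc was 55.1, 62.8, 71.9, 78.7, 80.6 and 75.8%, and that with Tal1 stayed between 53.1 and 63.3%. Rag1, a recombinase of both the DN3 and the double-positive stages, was in 26.2% of cells with 0 genes and 2.5% of those with 5. Gata3, a T-lineage factor, was in 12.3% and 27.5%. A list of early thymic progenitor genes held Kit, Flt3, Cd34, Lyl1, Mef2c, Hhex, Bcl11a, Spi1, Hoxa9 and Meis1. It summed to 41.5 CPM at 0 genes and 85.0, 148, 194, 211 and 267 CPM at 1 to 5. Most of its 3671 preleukemic UMIs, not thinned, were of Hhex (2320) and Lyl1 (834). Flt3 (14), Cd34 (9), Hoxa9 (6) and Meis1 (5) had few, so the sum follows Hhex and Lyl1 more than the whole list. The 8 gamma-delta genes summed to 1275 CPM at 0 genes and 3038 CPM at 5, and the 8 double-positive genes to 2610 and 1021 CPM.

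Because Cpa3 is a mast cell gene, mast cell and basophil genes were read beside it. Of 18 listed genes 11 had a UMI in the preleukemic library, and they summed to 16.3 CPM there against 8.93 CPM in WT and, for the leukemias, 3.10 CPM (T-ALL#1) and 7.37 CPM (T-ALL#2). The proteases Mcpt1, Mcpt2, Mcpt4, Tpsb2, Tpsab1 and Prss34 and the IgE receptor chain Fcer1a were at 0 UMIs in every library. By the 2-fold rule over each of the other 3 libraries 3 of the 18 were higher in the preleukemic library, namely Kit (325 UMIs against 45, 8 and 1 in WT, T-ALL#1 and T-ALL#2), Il1rl1 (79 against 6, 7 and 0) and Gata2 (34 against 0 in each), of which progenitors also transcribe Kit and Gata2. In preleukemic cells with Cpa3 the list summed to 17.4 CPM, and in those without to 14.3 CPM. In the same split, not thinned, the early progenitor list was 3.98-fold higher (128 against 32.3 CPM) and the gamma-delta list 2.10-fold higher (2684 against 1281 CPM), and the double-positive list was at 0.567 and the DN3 list at 0.940 of the level without Cpa3.

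All 5 genes had a higher level in low-cycling than in cycling preleukemic cells. Cells were called cycling above 73 UMIs per 10000 of 97 S and G2/M genes, which gave 1357 cycling and 4173 low-cycling cells. Cpa3 was at 1947 CPM in low-cycling and 626 CPM in cycling cells (3.11), Mdga1 at 197 and 75.8 (2.60), Osbpl1a at 160 and 53.7 (2.98), Atp8b4 at 214 and 73.3 (2.91) and Tes at 199 and 50.5 (3.95). The count of 5 of 5 stands beside 31.6% of 10161 genes called higher by the same rule and a median ratio of 1.19 over all of them, with 0.383 and 2.71 as 5th and 95th percentiles. Cycling cells held a median of 11404 UMIs against 4476 in low-cycling cells, so the contrast was read per cell as well. Counted this way, Cpa3 was at 10.5 UMIs in low-cycling and 7.68 UMIs in cycling cells, a ratio of 1.37. The ratios per cell of Mdga1, Osbpl1a, Atp8b4 and Tes were 1.14, 1.31, 1.28 and 1.74, each above 1, and that of Tal1 was 0.715. The cycling class is a range, with 1059 cells (19.2%) within 0.25 log2 units of the limit.

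After thinning, Cpa3 was detected in 62.6% of low-cycling and 45.9% of cycling cells, and Tes in 32.4% and 15.8%. Cd8a was found in 18.6% and 17.6% of these cells, so the classes held Cd8a alike. In DN3-gated preleukemic cells, which lack UMIs of Cd4, Cd8a and Cd44 and hold Il2ra, the order was the same. Cpa3 was at 1421 CPM in 262 low-cycling and 435 CPM in 122 cycling cells (3.26), Osbpl1a at 128 and 24.6 (5.18) and Atp8b4 at 231 and 54.7 (4.23). Mdga1 (2.88) and Tes (3.32) lay in the same range. In WT the 35 low-cycling DN3-gated cells held 34 UMIs of Atp8b4 (99.1 CPM) but 7 of Tes, 3 of Osbpl1a, 1 of Cpa3 and 0 of Mdga1. Atp8b4 thus had most UMIs of the 5 in these cells, at a level below its preleukemic level of 231 CPM. Tes was at 20.4 CPM (8.2 to 42) in these WT cells and at 107 CPM (93.4 to 123) in the 262 preleukemic ones. Its levels were thus further apart here than over all cells. In T-ALL#1 the 166 low-cycling DN3-gated cells held 52 UMIs of Cpa3 in 8 cells (38 CPM), 13 of Atp8b4 and 8 of Tes. The 151 cycling ones held 0, 3 and 2. Of the 52 Cpa3 UMIs 44 lay in 2 cells. In T-ALL#2 the 198 low-cycling DN3-gated cells held 3 UMIs of Cpa3 (1.01 CPM), 8 of Atp8b4 and 1 of Tes. The 236 cycling ones held 1, 6 and 0. The study names Cpa3 among the LMO2 target genes enriched in its dormant over its proliferative leukemic DN3 cells. Its clusters were not repeated here.

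Across 5530 preleukemic cells, the genes whose level went most closely with the mean of the 5 genes were Ikzf2 (r = 0.56), Clec2d (0.55), Rsrp1 (0.54), Rora (0.48), Tespa1 (0.48), Nrip1 (0.48), Malat1 (0.47), Myb (0.46), Itga4 (0.44) and Znrf1 (0.43). Ikzf2 encodes the Ikaros family factor Helios and Rora a nuclear receptor of innate-like lymphocytes. The lowest were Cd8b1 (-0.50), Thy1 (-0.48), Cd8a (-0.46), Rps12 (-0.44) and Cdca7 (-0.42). Tal1 stood at -0.01 and Trdc at 0.29. These are descriptions over cells of 1 library that share depth and cell cycle state, beside a median r of 0.00 over 8482 genes with -0.20 and 0.13 as 5th and 95th percentiles.

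Few cells outside the preleukemic library kept the genes. At least 2 of the 5 were found in 74 WT cells (1.80%), 32 T-ALL#1 cells (0.555%) and 4 T-ALL#2 cells (0.203%), without thinning, against 4061 preleukemic cells (73.4%). Independence gives 50, 6.64 and 1.28 cells in the first 3 of these libraries. At 2000 UMIs per cell the numbers were 12, 3 and 0. Of the 74 WT cells 71 held Tes and 52 held Tes with Atp8b4, so the WT number rests on these more widely expressed genes.

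The 9 WT cells with Cpa3 carried gamma-delta genes. All 9 held another of the 5 genes, 8 of them Tes, 5 Atp8b4 and 3 Osbpl1a, and none was cycling. Their median depth was 6745 UMIs, above the 3686 of all WT cells. The 4 cells with at least 5 Cpa3 UMIs, 29 UMIs in all, each held Trdc, with 143 Trdc UMIs together, and their gamma-delta list summed to 6462 CPM against 257 CPM in the other WT cells (25.1-fold). Of the 5 cells with 1 to 4 Cpa3 UMIs 4 held Trdc, and the list was 21.1-fold higher. Mast cell and basophil genes had 0 UMIs in all 9. At 2000 UMIs per cell, the 12 Cpa3 UMIs of WT lay in cells with Trdc, and 2830 cells without Trdc held 0. The highest Cpa3 count in a WT cell was 9 UMIs.

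Atp8b4 and Tes marked other WT cells. In 113 WT cells with Atp8b4 the myeloid list was 20.3-fold higher than in the remaining cells (4743 against 234 CPM), the early progenitor list 9.83-fold, the gamma-delta list 7.15-fold and the DN3 list 7.07-fold higher, a mixed group. In thinned WT cells Atp8b4 was 18.6-fold higher with Il2ra than without (8.79 to 37.2), whereas the preleukemic ratio was 0.910. In 1280 WT cells with Tes the mature single-positive list was 2.89-fold higher (2168 against 751 CPM) and the double-positive list was at 0.384 of the level in other cells. By coreceptors, thinned Tes was at 204 CPM in WT cells with Cd4 alone, 178 CPM with neither, 76.1 CPM with Cd8a alone and 59.0 CPM with both. The intervals of Cd4 alone and neither overlapped, as did those of Cd8a alone and both.

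In T-ALL#1 the Cpa3 transcripts were concentrated in few cells. Of 267 UMIs 184 lay in 19 cells with at least 5, and 1 cell held 35. Only 2 of the 19 were cycling (10.5%, against 40.6% of the library). These 19 cells had a median of 9977 UMIs against 8714 in the other cells of the library. At 2000 UMIs per cell, Il2ra was found in 1 of them (5.26%) against 38.3% of the other cells, Cd8a in 1 against 51.8%, Notch1 in 1 against 55.2% and the Notch target Hes1 in 1 against 30.9%. Without thinning Il2ra was in 3 (15.8%) against 66.1% and Cd8a in 4 (21.1%) against 77.7%. Even so, 2 of the 19 passed the DN3 gate, and they held 44 Cpa3 UMIs. Without thinning, Cd3e was found in 19 of 19 and Trdc in 1. Their gamma-delta list, carried by genes other than Trdc, was 6.74-fold higher (1119 against 166 CPM) and the mature single-positive list 2.46-fold higher, while the DN3 list was at 0.456 of the level elsewhere. Also without thinning, Tal1 was detected in 9 of the 19, at 56.5 CPM against 68.4 CPM in the other cells. Among low-cycling cells, not thinned, Tal1 was at 52.8 against 117 CPM. At 2000 UMIs per cell it was at 105 against 78.7 CPM over all cells, so no direction is read for Tal1. In T-ALL#1, the low-cycling level of Cpa3 was 19.1-fold the cycling level, that of Tes 7.61-fold and that of Atp8b4 4.19-fold.

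In T-ALL#2 only 2 cells held at least 5 Cpa3 UMIs, 31 and 6, with none of the other 4 genes and a single Tal1 UMI between them, and neither was cycling. Both held Trdc, with 6 UMIs together. The 4 cells with at least 2 of the 5 genes had a myeloid list 11.3-fold and a dendritic list 10.1-fold above those of the other cells. Droplets of over 100 and up to 500 UMIs, kept in this matrix alone, held Cpa3 at 1.69 CPM and Atp8b4 at 2.27 CPM, near the 1.82 and 1.66 CPM of the cells. The low T-ALL#2 levels of Cpa3 and Atp8b4 are therefore not read as expression in the leukemic cells at large.

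**Figure D5:**
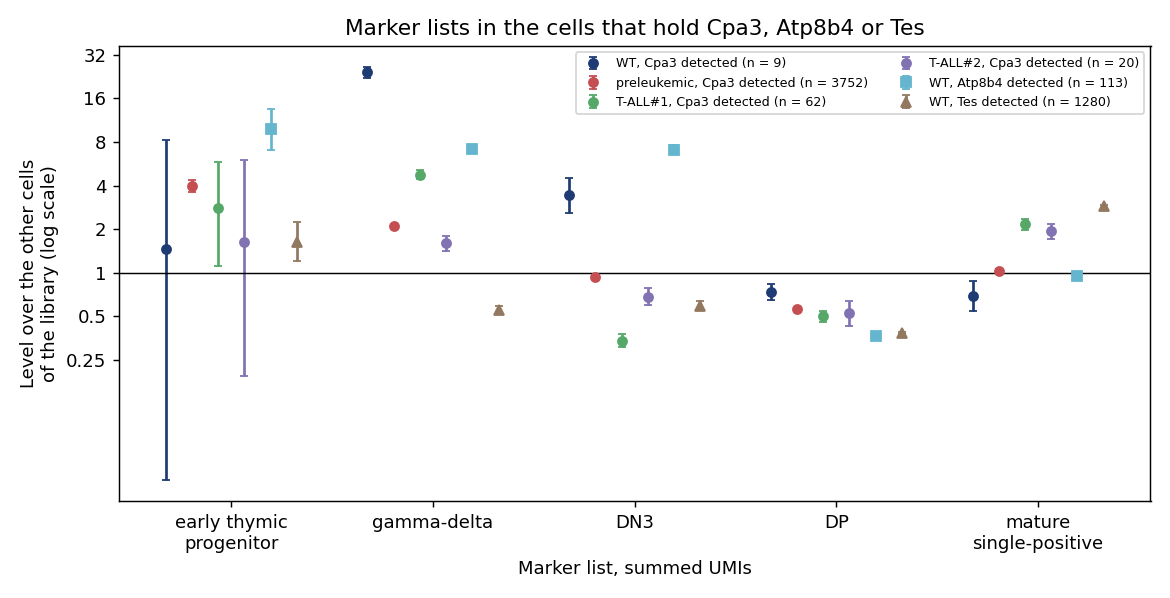
Summed level of marker lists in cells that held a gene, over the level in the other cells of the same library (log axis, exact 95% counting intervals, not thinned), for Cpa3 in the 4 libraries and Atp8b4 and Tes in WT. The gamma-delta list is high in the 9 WT cells with Cpa3, and the mature single-positive list in the WT cells with Tes.

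Listed relatives, known partners and functionally related genes of the 5 genes mostly did not share their pattern. Of 12 other carboxypeptidase genes 2 were higher in the preleukemic library by the 2-fold rule over each of the other 3 libraries, Cpb1 (55 UMIs, 1.41 CPM) and Cpq (857 UMIs, 21.9 CPM, 4.45-fold to 6.73-fold over the others). Of 4 genes related to or bound by Mdga1 only Nlgn2, a neuroligin, was higher (6.93 CPM, 3.46-fold to 9.40-fold). Of 14 oxysterol-binding family genes and partners only Osbpl5 was (4.68 CPM, 2.08-fold to 2.97-fold), and 0 of 16 P4-ATPase and 0 of 16 LIM domain and focal adhesion genes were, beside the 3.26% of all genes with a UMI.

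Of 13 measured genes of the TAL1 and LMO2 complex 4 were higher by this rule, namely Lmo2 and the factors Gata2, Lyl1 and Cbfa2t3. Over all genes with a UMI the share was 3.26%, which also stands beside the counts below. The lists are not independent, as they share genes, among them Lyl1, Kit, Hhex and Sox13. Lmo2 is itself a transgene of these mice. Lyl1, the nearest relative of Tal1, was at 21.3 CPM against 0.732, 0.864 and 0.331 CPM in WT, T-ALL#1 and T-ALL#2. Gata2 had 34 UMIs in the preleukemic library and 0 in the others. A published list of LMO2 target genes, which the study took up and which includes Cpa3 and Tes, had 35 of 79 genes higher. Cpa3, which this contrast chose, is among the 35. Of the early progenitor list 4 of 10 were higher (Kit, Lyl1, Bcl11a and Hhex), and of the gamma-delta list 5 of 8 (Sox13, Trdc, Tcrg-C1, Tcrg-C2 and Tcrg-C4). Of the DN3 list none was higher and Hes1 and Ptcra were lower, and 0 of 43 S phase and 0 of 54 G2/M genes were higher.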

How the data were processed

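Thymocytes of 1 WT, 1 preleukemic and 2 leukemic mice were profiled by droplet-based 3′ single-cell RNA sequencing. The deposited matrices hold counts, the UMIs of each of 31053 genes per barcode with no normalization, which the authors made with Cell Ranger 3.0.2 (WT, preleukemic, T-ALL#1, called cells only) and Cell Ranger 4 (T-ALL#2, all barcodes) on mm10, per the file headers and the labels. The labels and the study's methods name the chemistry versions differently, so chemistry and library cannot be told apart. Cells were kept with over 500 genes, under 10% mitochondrial UMIs and a number of genes below mean plus 3 SD, and in T-ALL#2 with at least 3416 UMIs, which is 1/10 of the 99th percentile of the 10000 largest barcodes. This kept 4115 of 5879, 5530 of 6964, 5770 of 7726 and 1975 of 2700 barcodes in WT, preleukemic, T-ALL#1 and T-ALL#2, and the study's selection was not exactly repeated. Doublets were limited by the limit on genes alone.

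Levels were UMIs summed over cells and scaled to 1000000 UMIs per library (CPM) with exact Poisson 95% intervals, shares had Clopper-Pearson intervals, and ratios had exact conditional binomial intervals, all for counting error only (scipy 1.17.1, Python 3.11.15). For links within the preleukemic library each cell was thinned without replacement to 2000 UMIs. With 1 library per group no test was made. A ratio was called at 2-fold between libraries and 1.5-fold within the preleukemic library, with the interval off 1, and genes with at least 100 UMIs gave the background. Cycling cells lay above a log2 level of 6.21 of 97 cell-cycle genes, a limit set by a 2-means split of DN3-gated leukemic cells. The DN3 gate asked for no UMI of Cd44, Cd4 or Cd8a and for an Il2ra level above 0.5 (natural log of 1 plus UMIs per 10000). Size factors of edgeR 4.0.16 (TMM) and DESeq2 1.42.0 served as other scales only. Coordinates are from GENCODE M21, where 30934 gene identifiers (99.6%) were found, and promoters are from RefSeq (GRCm38.p6). The procedures were tested on simulated data.

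The members, gene lists and limits were chosen with earlier results of these data known. Genes named besides the 5 were the 10 with the largest smallest log2(CPM + 1) difference of the preleukemic library over the others, the 10 with the highest and 5 with the lowest correlation over preleukemic cells with the mean of the 5, the listed genes, and Tal1 and Lmo2. Rag1, Gata3, Cd3e, Notch1 and Hes1 values in cell groups, the split at 5 Cpa3 UMIs and the combined E-box and GATA search were chosen after values were seen. 1 B-cell marker is not reported here.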

Additional observations from a re-analysis of the deposited data

Results flagged for a closer look

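Opposite directions in WT and preleukemic cells were found for 2 links. Tes was lower in WT cells with Trdc than in those without (ratio 0.401, 0.269 to 0.578, 30 against 720 thinned UMIs) and higher in preleukemic cells with Trdc (1.26, 1.14 to 1.40). Osbpl1a was lower in low-cycling than in cycling WT cells (0.386, 0.187 to 0.795, 17 against 18 UMIs) and higher in low-cycling preleukemic cells (2.98). Each group is 1 library, so these differences were not tested.

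Signal was also present in preleukemic barcodes that were left out for their mitochondrial share, which no comparison above uses. These 1367 barcodes with 2452190 UMIs held Cpa3 at 809 CPM, Mdga1 at 213 CPM, Osbpl1a at 85.6 CPM, Atp8b4 at 274 CPM and Tes at 125 CPM. The 1603 WT barcodes left out in the same way held 0.521, 0, 2.61, 10.9 and 81.3 CPM. Against the kept preleukemic cells, Cpa3 and Osbpl1a were lower and Mdga1 and Atp8b4 higher in the left-out barcodes, as was Tal1 (810 against 417 CPM).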

How the results depend on the processing

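Of 75 alternatives to the 18 main counts, 68 stayed within 1.5 times the count given, and 7 moved. The 2-fold count of 4 genes over the other 3 libraries was the same under TMM factors, DESeq2 size factors, equal weights for cells and without either leukemia (4 to 4). The count of genes linked to Tal1 went from 0 to 2 without thinning, all lower. The count linked to Il2ra went from 3 to 5 with 1000 UMIs per cell and to 5 without thinning. The count linked to Trdc went from 4 to 1 with 1000 UMIs per cell and to 1 without thinning, where the Osbpl1a ratio reversed to 0.966. The 110 WT and leukemic cells with at least 2 of the genes became 19 when 2 UMIs of each of 2 genes were asked for and 15 at 2000 UMIs per cell, as fewer UMIs per cell hold fewer genes, and leaving out 1 leukemia gave 78 to 106. The cause of the other changes was not tested. Counts for the gene lists under both size factors, and DN3-gated values without the gene limit or the 5% of cells with most UMIs, were alternatives chosen after seeing the data, and none moved a count. Of 243 values for single genes or libraries 208 kept direction and call, 10 lost the call, 7 gained it, 17 moved and 1 reversed. No paired analysis was possible because WT and preleukemic thymus have 1 library each. With 39 and 6 UMIs of Cpa3 and Mdga1 in WT, depth limits the largest ratios, and intervals do not cover differences between mice.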
